A study of Mus musculus with 32 samples.

Results

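The genes described here encode the mitochondrial ribosomal proteins, the protein part of the ribosome that works inside mitochondria. Members were taken as every gene on the array whose platform symbol begins with Mrpl or Mrps followed by a digit, and the rule uses symbols and detection, not differences between groups. The platform named 76 such genes on 110 probes. Of these, 71 genes, on 99 probes, passed the filter on dim probes, among 10903 genes tested in all, and each gene was read from its brightest probe. Mrpl19, Mrpl21, Mrpl32 and Mrps36 were well above background on 0 arrays. Mrpl45, with 2 probes, was so on at most 1 KO and 1 WT array. Of the 71 that passed, 70 were well above background on all 32 arrays, and Mrps14 was so on 4.

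The arrays measured immortalized MEFs, embryonic fibroblasts of the mouse that have been made to divide without limit in culture. KO cells were Spry124-/-, lacking Spry1, Spry2 and Spry4, which encode Sprouty proteins, feedback inhibitors of growth factor receptor signalling, and WT cells were Spry124 fl/fl, in which these genes are floxed but intact. Cells of both genotypes were serum-starved in DMEM with 0.2% BSA and antibiotics, and RNA was taken at 0, 15, 60, 120 and 240 min after treatment with fibroblast growth factor (FGF), a ligand whose type and dose the labels do not give. Illumina bead arrays, 1 per sample, were run on 4 KO and 4 WT samples at 0 min and on 3 of each at every later time. The submitters call the replicates biological without saying whether each was its own culture, and the p-values rest on the spread among these samples only, which may be technical. How many independently derived lines stand behind each genotype was not stated, so genotype and line cannot be told apart. No untreated arrays were run at the later times, so FGF and time in culture cannot be told apart. In bulk samples such as these, fewer cells and less RNA per cell cannot be told apart either.

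Mitochondrial ribosomes translate the few proteins encoded by the mitochondrial genome, which are core subunits of the respiratory chain and of ATP synthase. Their ribosomal RNAs come from the mitochondrial genome, but all of their proteins are encoded in the nucleus, made on cytosolic ribosomes and imported. Some of these proteins have counterparts in bacterial ribosomes, and others exist only in mitochondria. Large subunit proteins are mostly named Mrpl and small subunit proteins Mrps, although the products of Mrps30 and Mrps18a sit in the large subunit.

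The arrays differed between genotypes in features that touch every comparison below. Probes well above background numbered 12070 ± 260 on KO arrays and 11592 ± 178.6 on WT arrays (SD, n = 16 each), with 11516 to 11794 on the 3 KO arrays at 120 min. The median log2 signal of the 71 members was between 9.28 and 9.62 on KO arrays and between 9.58 and 9.94 on WT arrays. The part of these array differences in the results was not tested. Of the deleted genes, Spry1 was well above background on 2 KO and 0 WT arrays by 1 of its 2 probes and on none by the other, and Spry2 on 0 KO and 2 WT arrays, so neither deletion could be read. Spry4 was so on 4 KO and 13 WT arrays, and was lower in KO averaged over the times (log2 −0.85 ± 0.067 SE, limma adjusted p = 4.48e-12). Where these probes lie relative to the deleted parts is not given, and a probe outside them checks nothing. Of 10 fibroblast markers, 8 were above background on all 32 arrays, Lum was so on 0 KO and 16 WT arrays, and Pdgfrb on 16 KO and 9 WT arrays. No marker of leukocytes, endothelium or epithelium was above background on all 32 arrays. Among 3 leukocyte markers, Lyz2 was so on 16 KO and 2 WT arrays, Adgre1 on 0 KO and 1 WT array and Ptprc on none. Among 4 endothelial markers, Kdr was so on 7 KO and 2 WT arrays, Tek on 3 KO and 0 WT arrays, Pecam1 on 0 KO and 1 WT array and Cdh5 on none. Among 3 epithelial markers, Krt8 was so on 15 KO and 16 WT arrays, Cdh1 on 7 KO and 0 WT arrays, and Krt18 on none. The part of these markers in the results was not tested.

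The start regions of 6 members on which the results turn are shown 5′ to 3′. For Mrpl23, Mrps21, Mrps6 and Mrpl49 these are the 250 bases before the annotated start, on the gene's strand, and for Mrps11 and Mrpl46 the stretch between their starts. They are from RefSeq on build GRCm38.p6, and no build is named for the array annotation. Capitals mark matches to the motifs searched for below: the GC box GGGCGG, the NRF1 motif (GCGCA, any base, then GCGC) and the cyclic AMP response element TGACGTCA, each on either strand. Mrpl23, on chromosome 7, had the largest genotype difference, and its window (chr7:142532782-142533031, plus strand) holds GC boxes that begin at −122 and −69, counted from the start. Mrps21, on chromosome 3 (chr3:95871515-95871764, minus strand), was among the members higher in KO and holds the NRF1 motif from −91. Mrps6, on chromosome 16 (chr16:92058086-92058335, plus strand), and Mrpl49, on chromosome 19 (chr19:6057756-6058005, minus strand), had time courses that differed between genotypes. The GC boxes of Mrps6 begin at −114, −109, −95 and −79, and the first 2 of them share 1 base. Mrpl49 holds the response element from −154 and GC boxes, on the other strand, from −110 and −90. Mrps11 and Mrpl46 are neighbours on chromosome 7 that are read in opposite directions, with only 41 bases between their starts (chr7:78783090-78783130, shown on the plus strand), and both were lower in KO.
Mrpl23: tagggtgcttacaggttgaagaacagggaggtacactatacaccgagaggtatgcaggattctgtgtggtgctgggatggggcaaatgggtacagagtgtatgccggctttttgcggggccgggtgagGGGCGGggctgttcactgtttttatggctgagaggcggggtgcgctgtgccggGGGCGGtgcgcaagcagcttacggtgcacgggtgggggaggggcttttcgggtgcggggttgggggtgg
Mrps21: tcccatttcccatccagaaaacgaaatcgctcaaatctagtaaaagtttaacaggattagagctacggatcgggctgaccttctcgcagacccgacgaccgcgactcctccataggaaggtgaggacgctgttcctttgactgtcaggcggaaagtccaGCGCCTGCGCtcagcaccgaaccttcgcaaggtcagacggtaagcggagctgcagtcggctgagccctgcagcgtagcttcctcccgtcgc
Mrps6: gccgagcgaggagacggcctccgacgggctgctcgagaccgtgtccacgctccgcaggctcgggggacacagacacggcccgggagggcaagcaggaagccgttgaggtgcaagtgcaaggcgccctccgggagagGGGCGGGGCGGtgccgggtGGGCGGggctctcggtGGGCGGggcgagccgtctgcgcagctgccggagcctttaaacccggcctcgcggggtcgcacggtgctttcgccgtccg
Mrpl49: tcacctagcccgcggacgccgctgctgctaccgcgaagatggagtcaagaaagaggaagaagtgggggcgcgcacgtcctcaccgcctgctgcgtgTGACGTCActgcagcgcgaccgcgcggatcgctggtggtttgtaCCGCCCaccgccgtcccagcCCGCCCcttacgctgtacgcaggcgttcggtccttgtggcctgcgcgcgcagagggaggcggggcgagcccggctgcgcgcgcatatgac
Mrps11 and Mrpl46: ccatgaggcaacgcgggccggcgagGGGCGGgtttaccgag

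The first comparison asked how KO cells differed from WT cells in these genes, averaged over the 5 times so that each time counted equally. KO cells had lower signals for most of the family. At a limma adjusted p under 0.05, with Benjamini-Hochberg adjustment over all genes tested, 46 members were lower in KO, 10 were higher and 15 did not pass. Over all 10903 genes, 67.4% passed, 35.6% in the lower and 31.8% in the higher direction. The median member difference was a log2 of −0.18, against −0.02 over all genes. By sign, 53 of 71 members were below 0, and 5773 of all 10903 genes. Most of the member differences were small: 8 members differed by more than 1.5-fold and 1 by more than 2-fold.

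Mrpl23, whose bacterial counterpart lines the exit of the tunnel through which the nascent peptide leaves, stood apart from the other members. Its log2 signal was 7.37 at the lowest, 7.61 at the median and 8.02 at the highest of the 16 KO arrays, against 9.82, 10.01 and 10.09 on the 16 WT arrays. The genotypes did not overlap, with a gap between them wider than the range within either. The averaged difference was a log2 of −2.34 ± 0.040 (SE), 5.06-fold lower in KO (limma adjusted p = 1.11e-27). It was −2.36, −2.39, −2.35, −2.11 and −2.48 at 0, 15, 60, 120 and 240 min.

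The next largest reductions were in proteins of both subunits. Mrpl15, a large subunit protein with a bacterial counterpart, had log2 signals of 5.73, 6.19 and 6.47 (lowest, median and highest) on KO arrays, against 6.67, 6.91 and 7.41 on WT arrays, and was 1.78-fold lower (limma log2 −0.83 ± 0.053, adjusted p = 4.92e-14). Mrps15, of the small subunit, had 7.35, 7.64 and 8.05 on KO arrays, against 8.12, 8.44 and 8.64 on WT arrays, and was 1.73-fold lower (limma log2 −0.79 ± 0.068, adjusted p = 3.06e-11). Neither gene's KO arrays reached its lowest WT array. Mrps11, a small subunit protein with a bacterial counterpart, had 8.09, 8.42 and 8.83 on KO arrays and 8.78, 9.08 and 9.40 on WT arrays, a narrow overlap, and was 1.60-fold lower (limma log2 −0.68 ± 0.049, adjusted p = 5.22e-13). Mrpl37, found only in mitochondrial ribosomes, had 8.75, 8.90 and 9.08 on KO arrays and 9.44, 9.56 and 9.70 on WT arrays, and was 1.57-fold lower with no overlap (limma log2 −0.65 ± 0.035, adjusted p = 7.39e-16).

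Mrpl46, of the central protuberance, a projection of the large subunit toward the small subunit, had 9.02, 9.29 and 9.54 on KO arrays and 9.62, 9.81 and 10.12 on WT arrays, and was 1.45-fold lower. Mrps31, a small subunit protein specific to mitochondria, had 9.15, 9.42 and 9.83 on KO arrays and 9.82, 9.92 and 10.09 on WT arrays, and was 1.44-fold lower. The highest KO array of Mrps31 thus reached the lowest WT array, while Mrpl46 showed no overlap. Mrps35, of the same class as Mrps31, had 8.03, 8.29 and 8.46 on KO arrays and 8.46, 8.70 and 9.03 on WT arrays, so that the genotypes met at their edges, and was 1.41-fold lower (limma adjusted p = 3.89e-10).

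A smaller number of members had higher signals in KO. Mrpl24, whose bacterial counterpart also lies at the tunnel exit, had 7.32, 7.74 and 7.98 on KO arrays and 6.49, 6.85 and 7.16 on WT arrays, and was 1.82-fold higher (limma log2 0.86 ± 0.058, adjusted p = 1.54e-13). Mrps21, of the small subunit, had 9.28, 9.51 and 9.92 on KO arrays and 8.56, 8.91 and 9.05 on WT arrays, and was 1.62-fold higher (limma log2 0.69 ± 0.049, adjusted p = 4.26e-13). Mrpl53, at the base of the stalk that recruits translation factors, had 10.10, 10.33 and 10.72 on KO arrays and 9.50, 9.71 and 10.03 on WT arrays, and was 1.54-fold higher (limma log2 0.63 ± 0.046, adjusted p = 8.28e-13). None of these 3 overlapped between genotypes. Mrpl9 and Mrpl3, both with bacterial counterparts, were 1.32-fold and 1.31-fold higher, with 8.88 to 9.48 on KO against 8.47 to 9.02 on WT arrays for Mrpl9 and 10.31 to 10.81 against 9.94 to 10.36 for Mrpl3. Both overlapped at their edges.

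The remaining members of the 8 largest rises were weaker. Mrpl39, near the tunnel exit, had 5.95, 6.47 and 7.18 on KO arrays and 5.76, 6.04 and 6.47 on WT arrays, and was 1.28-fold higher (limma adjusted p = 0.000567). It passed the test at 0 and 15 min (log2 0.70 and 0.61), while at 60, 120 and 240 min it had log2 differences of 0.27, 0.06 and 0.16 that did not pass. Mrpl14 was 1.14-fold higher (9.87 to 10.56 on KO, 9.83 to 10.23 on WT arrays) and Mrps10 1.09-fold (8.59 to 9.30 on KO, 8.56 to 9.08 on WT arrays, limma adjusted p = 0.0423). The call of Mrps10 was lost in 19 of 32 fits that each left out 1 array (adjusted p up to 0.0879). Under the other 2 scalings of the arrays neither passed, with limma adjusted p = 0.122 and 0.172 for Mrpl14 and 0.49997 and 0.747 for Mrps10.

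**Figure D1:**
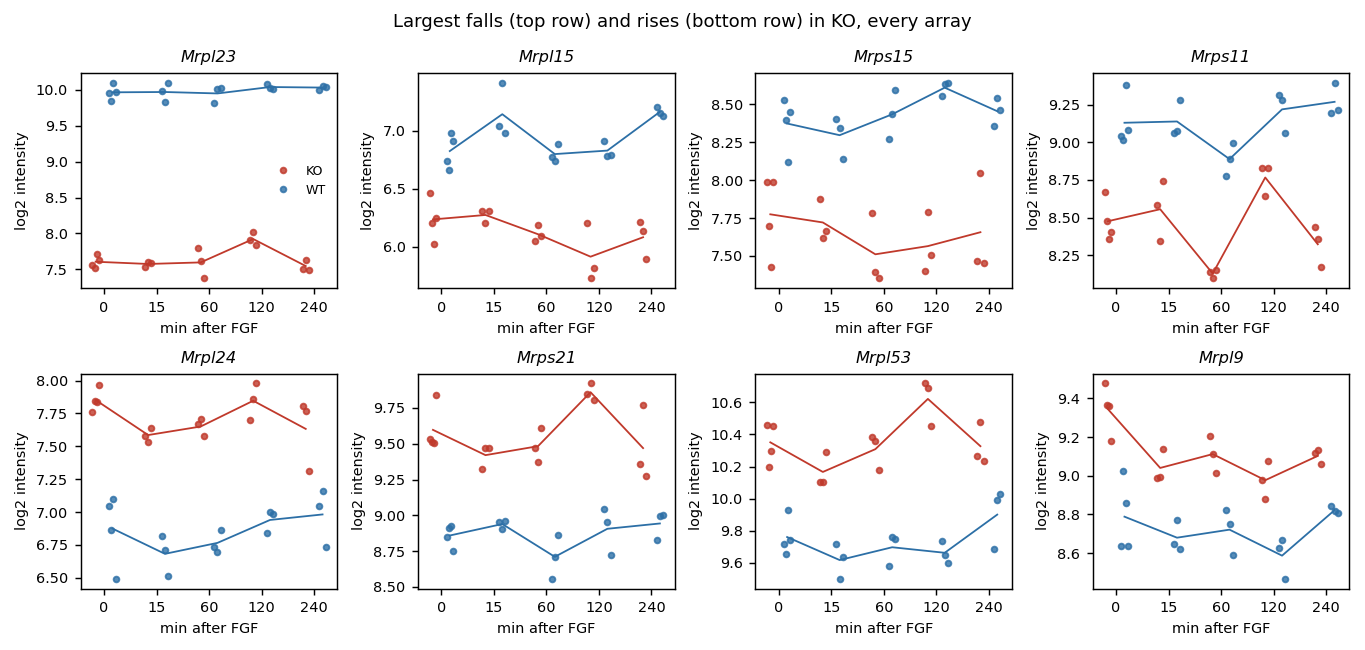
Log2 signal (vertical axis) against time after FGF in minutes (horizontal axis) for 4 members lower in KO (top row) and 4 higher in KO (bottom row). Points are arrays and lines join group means, KO in red and WT in blue. For Mrpl23 every KO array lies at or below 8.02 and every WT array at or above 9.82.

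By the part of the ribosome, a grouping written with earlier results of these data known, the reductions touched every group, and 5 of the 7 groups also held members that were higher. Beside the counts in each group, 35.6% of all genes passed as lower and 31.8% as higher. All 5 members that this grouping placed in the central protuberance were lower in KO (median log2 −0.36). They were Mrpl46, Mrpl48 (log2 −0.36), Mrpl38 (−0.36), Mrpl18 (−0.30) and Mrpl40 (−0.20). Of the 5 proteins of the factor-binding stalk and its base, 4 were lower and 1, Mrpl53, was higher. Mrpl54, at that base, had 11.58, 11.80 and 12.04 on KO arrays and 12.16, 12.30 and 12.46 on WT arrays, with no overlap. Mrpl10, which anchors the stalk, was 1.23-fold lower, and Mrpl12, the stalk protein that contacts translation factors, 1.24-fold lower. At the tunnel exit, 3 of 5 were lower and 2 higher: Mrpl23, Mrpl22 (log2 −0.29) and Mrpl17 (−0.18) against Mrpl24 and Mrpl39.

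Among the other large subunit proteins with bacterial counterparts, 11 of 19 were lower and 4 higher (median log2 −0.19). The shares over all genes, for this and the next groups, were 35.6% lower and 31.8% higher. Mrpl34 was 1.40-fold lower and did not overlap between genotypes, and Mrpl35 was 1.36-fold lower. The group with bacterial counterparts includes Mrpl47, whose bacterial relative also lies near the tunnel exit (log2 −0.33). Of 11 large subunit proteins found only in mitochondria, 7 were lower, among them Mrpl37, Mrpl42 (log2 −0.37) and Mrps30 (−0.34), and 1, Mrpl52, was higher (0.11). In the small subunit, 9 of 17 proteins with bacterial counterparts were lower and 2 higher, with Mrps7 1.37-fold lower without overlap. None of the 9 mitochondria-specific small subunit proteins was higher and 7 were lower (median log2 −0.17). With the other 2 scalings, the counts of the first 3 groups were the same, and in the other 4 groups between 0 and 2 members were higher and between 6 and 14 lower.

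**Figure D2:**
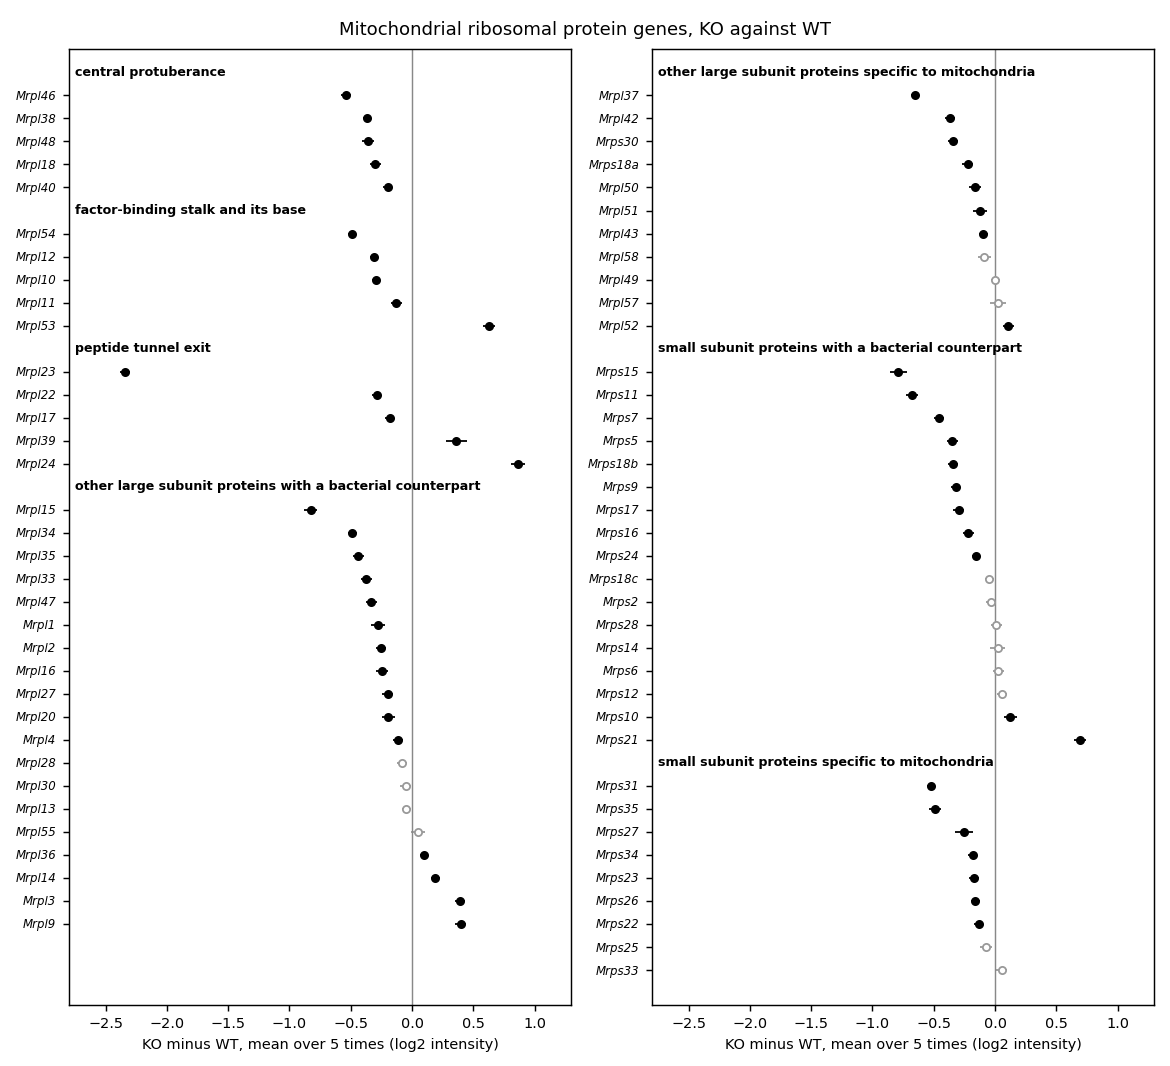
KO minus WT log2 difference averaged over the 5 times for each of the 71 members (horizontal axis, bars SE), grouped by place in the ribosome. Filled points passed a limma adjusted p under 0.05 and hollow points did not. Mrpl23 lies at −2.34, and the other members lie between −0.83 (Mrpl15) and 0.86 (Mrpl24).

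The genotype difference was then read at each time. At 0 min, before FGF, 28 members were lower and 8 higher, where 23.7% and 22.2% of all genes passed in those directions. The median member difference was −0.16, and the largest were Mrpl23, Mrpl37 (−0.71), Mrps11 (−0.66), Mrps15 (−0.60) and Mrpl15 (−0.59) among those lower. Among those higher at 0 min were Mrpl24 (0.98), Mrps21 (0.74), Mrpl39, Mrpl53 (0.59) and Mrpl9 (0.56). The split at 0 min depended on the scaling. With all arrays scaled to the median of all probes, 14 members were lower and 11 higher. The member median was then −0.045 and the all-gene median 0.07. Shares of all genes passing under the other scalings are not given in this text, so member counts under them cannot be set against such shares.

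Counts were close to these at 15 min, with 28 lower and 7 higher (20.9% and 19.1% of all genes), and at 60 min, with 31 lower and 6 higher (21% and 20.9%). At 120 min, fewer members were lower, 18 against 8 higher, where 22.6% and 21.2% of all genes passed, and the member median was −0.06. With scaling to the median of all probes this count became 34 lower and 4 higher, under a shift of the all-gene median of −0.12. The shares of all genes passing under that scaling are not given. At 240 min, 51 members were lower and 5 higher (22% and 21.9% of all genes), and the member median was −0.35. By sign, 64 of 71 members lay below 0 at 240 min, and 5657 of all 10903 genes.

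At all 5 times, 16 members passed as lower, where 10.1% of all genes did, and 5 as higher, where 11.5% did. The 16 were Mrpl10, Mrpl15, Mrpl23, Mrpl34, Mrpl35, Mrpl37, Mrpl38, Mrpl46, Mrpl54, Mrps5, Mrps7, Mrps11, Mrps15, Mrps30, Mrps31 and Mrps35, and the 5 were Mrpl3, Mrpl9, Mrpl24, Mrpl53 and Mrps21. Another 8 passed at no time: Mrpl4, Mrpl55, Mrpl57, Mrps2, Mrps12, Mrps14, Mrps28 and Mrps33. Mrpl11 passed as higher at 120 min and lower at 240 min, and Mrps6 as higher at 0 min and lower at 240 min. Over the 16 KO and 16 WT arrays, 10 members lay wholly lower in KO, where 5.39% of all genes did, and 3 wholly higher, where 7.05% did. Across the 71 members, the KO minus WT difference at 0 min correlated with that at 15, 60, 120 and 240 min with Pearson r of 0.97, 0.95, 0.90 and 0.92, or 0.94, 0.92, 0.86 and 0.86 without Mrpl23. Over all genes r was 0.94, 0.91, 0.89 and 0.84. The later differences share no arrays with those at 0 min, but the genes are not independent replicates.

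The members spanned a wide range of signal, although levels of different probes cannot be set against each other. The 5 brightest by mean were Mrps24, Mrpl54, Mrpl33, Mrpl13 and Mrps6. Mrps24, of the small subunit, ranged over 11.80 to 12.22 on KO arrays and 12.05 to 12.40 on WT arrays, and Mrpl33, of the large subunit, over 11.31 to 11.83 and 11.67 to 12.29. Both had lower KO medians and overlapping arrays. Mrpl13 had 11.41 to 11.86 on KO and 11.53 to 11.88 on WT arrays. The 5 dimmest were Mrps14, Mrpl57, Mrpl51, Mrpl39 and Mrps27. Mrps14, at 4.49 to 5.15 on KO and 4.42 to 5.11 on WT arrays, was close to background, so its log2 difference of 0.02 ± 0.061 (limma adjusted p = 0.749) is a comparison of signals mostly not well above it. Mrpl57 had 5.59 to 6.09 on KO and 5.57 to 6.21 on WT arrays, Mrpl51 5.66 to 6.48 and 5.98 to 6.51, and Mrps27 5.64 to 6.52 and 5.92 to 6.68. For the 21 members with several probes kept, 49 in all, no pair of probes gave calls in opposite directions. In 16 of these members all probes had the same call, and in 5 (Mrpl13, Mrpl43, Mrpl49, Mrpl51 and Mrps10) some passed and others did not.

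Because Mrpl23 stood so far from the rest, its neighbours on chromosome 7 were examined, a choice made after its value was seen. RefSeq places 4 tested genes on either side. Igf2, a growth factor gene and the next one tested in that order, averaged a log2 signal of 9.25 on KO arrays and 13.30 on WT arrays, 16.5-fold lower in KO (limma log2 −4.04 ± 0.046, adjusted p = 4.32e-32). On the other side, Lsp1, which encodes an actin-binding protein, was 1.83-fold lower, and Tnni2, a fast skeletal troponin gene, passed as lower, but it was above background on only 6 KO arrays against 16 WT arrays, so no fold is given. Farther out, Cd81, a tetraspanin gene, was 1.55-fold and Tssc4 1.78-fold lower. Dusp8 and Ctsd did not pass, with log2 differences of −0.05 and −0.17, and neither did Kcnq1, which was above background on 3 KO and 1 WT arrays. Thus 5 of the 8 neighbours were lower and none higher, where 35.6% of all genes passed as lower and 31.8% as higher. The platform names no probe for H19, and Tnnt3, Ins2 and Th were above background on 0 arrays.

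The same count around other members with large differences varied, again chosen after their values were seen. Over all genes, 35.6% passed as lower and 31.8% as higher. Of 8 tested neighbours of Mrpl37, 7 were lower and 1 higher, and of the 8 of Mrps11, 6 were lower and 1 higher. Mrpl46, itself a member, is among those lower around Mrps11. Of the 8 of Mrps15, 5 were lower and 2 higher. Around Mrps21, which was higher in KO, 6 of 8 neighbours were higher and none lower. Around Mrpl53, 1 of 8 was higher and none lower. Around Mrpl24, 2 were higher and 2 lower of 8, and around Mrpl15, 1 was higher and 2 were lower of 4. Some neighbours that passed were above background on only part of the arrays. These include Acot11 (7 KO and 0 WT arrays), Pars2 (5 and 11) and Ldlrad1 (4 and 8) around Mrpl37. Det1 near Mrps11 was so on 0 KO and 4 WT arrays and Car14 near Mrps21 on 11 and 4. Near Mrpl24, Prcc was so on 10 and 4 and Crabp2 on 9 and 0.

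**Figure D3:**
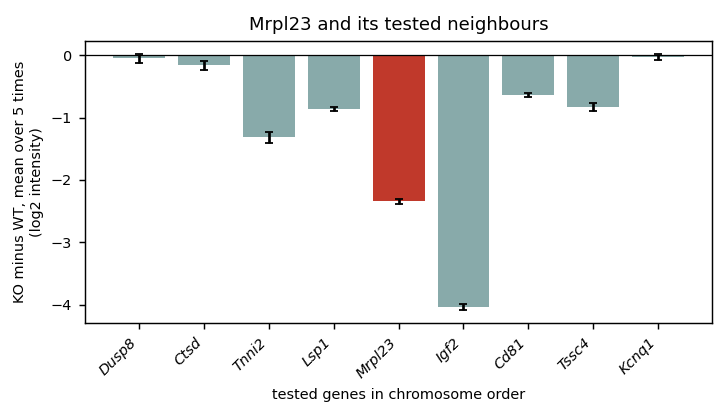
KO minus WT log2 difference averaged over the 5 times (bars, with SE) for Mrpl23, in red, and its 8 tested neighbours in their RefSeq order on chromosome 7. Igf2 at −4.04 and Mrpl23 at −2.34 are the lowest, and Dusp8, Ctsd and Kcnq1 lie between −0.17 and −0.03. Tnni2 and Kcnq1 were near background on most KO arrays.

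The second comparison asked how the genes changed after FGF within each genotype. The 4 responses of a genotype share its 0 min arrays. In KO cells, 0 members passed at 15 min in limma, where 0.816% of all genes did. At an unadjusted limma p under 0.05, 1 member was higher and 5 were lower, against 580 and 663 of all 10903 genes. At 60 min, 5 members had fallen and none had risen, where 2.47% of all genes passed as lower and 3.19% as higher. At 120 min, 4 had risen and 3 had fallen (6.14% and 9.03% of all genes). At 240 min, 7 had fallen and none had risen (11.1% and 10.2%). The median member response in KO was −0.14, 0.08 and −0.12 at 60, 120 and 240 min.

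In WT cells, 0 members passed at 15 min in limma, where 2.29% of all genes did. At an unadjusted limma p under 0.05, 1 member was higher and 3 were lower, against 806 and 744 of all 10903 genes. At 60 min, 3 had fallen and none had risen, where 2.1% of all genes passed as lower and 3.15% as higher, and at 120 min 1 had fallen, where 1.98% and 2.04% did. At 240 min, 9 had risen and none had fallen, where 7.66% of all genes passed as higher and 8.33% as lower. The median WT response was −0.09, −0.01 and 0.09 at 60, 120 and 240 min. By sign, 60 of 71 members lay above 0 at 240 min, and 5339 of all 10903 genes.

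Mrpl49, a large subunit protein specific to mitochondria, changed in both genotypes. In KO it had 9.30, 9.26, 9.17 and 9.45 at 0 min, 8.89, 9.03 and 8.73 at 60 min, 8.86, 8.99 and 8.88 at 120 min, and 9.14, 9.13 and 8.94 at 240 min. In WT it had 9.13, 9.09, 9.24 and 9.06 at 0 min, 8.72, 8.76 and 8.68 at 60 min, 8.78, 8.75 and 8.94 at 120 min, and 9.49, 9.57 and 9.48 at 240 min. Every 60 and 120 min array lay below every 0 min array of its genotype, and at 240 min KO stayed below its 0 min arrays while WT lay above its own. The fall at 60 min was −0.42 ± 0.08 in KO and −0.41 ± 0.08 in WT (limma adjusted p = 0.00113 and 0.00105). At 240 min it was −0.23 ± 0.08 in KO (limma adjusted p = 0.0404), lost in 4 of the 7 fits that each left out 1 of its arrays, and 0.38 ± 0.08 in WT (0.000826). The WT fall at 120 min, −0.31 ± 0.08 (0.0206), was lost in 3 of 7 such fits. The WT fall at 60 min did not pass with scaling to the median of all probes (−0.32, limma adjusted p = 0.129). With the mean of the gene's probes it did not pass either (−0.27, 0.0754), nor did the KO fall at 120 min (−0.18, 0.173). The KO fall at 60 min was lost in 0 of the 8 alternatives of processing.

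In KO at 60 min, Mrpl38, of the central protuberance, had 10.41, 10.47 and 10.36, against 10.69, 10.76, 10.63 and 10.79 at 0 min, all lower (limma log2 −0.30 ± 0.07, adjusted p = 0.00802, and 0.0651 without KO 60 min replicate C). Mrps26, a small subunit protein specific to mitochondria, had 9.64, 9.60 and 9.65 at 60 min, against 10.07, 9.81, 9.75 and 9.98 at 0 min (−0.27 ± 0.08, limma adjusted p = 0.0334). The groups did not overlap in either gene. Mrps11 had 8.14, 8.09 and 8.15 against 8.67, 8.48, 8.36 and 8.40 (−0.35 ± 0.10), and Mrps2 7.31, 7.495 and 7.32 against 7.78, 7.62, 7.75 and 7.53 (−0.29 ± 0.09). These also lay wholly below 0 min, but leaving out 1 array ended the call of Mrps26, Mrps11 and Mrps2 in 5, 6 and 5 of 7 fits.

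None of the rises in KO at 120 min passed with scaling to the median of all probes, while some did with that to the kept probes. Mrps28, a small subunit protein, had 9.80, 9.79 and 9.74 at 120 min, against 9.39, 9.35, 9.44 and 9.49 at 0 min (limma log2 0.36 ± 0.09, adjusted p = 0.0077), and Mrpl23 had 7.91, 8.02 and 7.84 against 7.56, 7.52, 7.72 and 7.63 (0.32 ± 0.09, 0.0118). Mrpl11, a stalk base protein, had 9.44, 9.71 and 9.44 against 9.22, 9.19, 9.21 and 9.33, and Mrps16 10.17, 9.94 and 9.85 against 9.72, 9.71, 9.62 and 9.77. In each gene every 120 min array lay above every 0 min array, but the calls of Mrpl23, Mrpl11 and Mrps16 were lost in 1, 6 and 6 of 7 fits without 1 array (limma adjusted p = 0.0758 for Mrpl23 without KO 120 min replicate B). With scaling to the median of all probes, the responses of Mrps28, Mrpl23, Mrpl11 and Mrps16 were 0.05, −0.01, −0.01 and −0.00, none of which passed, and 20 members had fallen and none had risen. That scaling moved the all-gene median response to −0.21. The share of all genes that fell under it is not given, so the 20 members cannot be set against it. With scaling to the median of the kept probes, Mrps28 and Mrpl23 still passed, while Mrpl11 and Mrps16 did not (limma adjusted p = 0.0853 and 0.062). The 3 falls were Mrpl49, Mrpl9, with 8.98, 8.88 and 9.08 against 9.48, 9.36, 9.36 and 9.18 at 0 min (−0.37 ± 0.09, limma adjusted p = 0.00507), and Mrps31, with 9.19, 9.27 and 9.15 against 9.58, 9.42, 9.35 and 9.44 (−0.24 ± 0.08, lost in 3 of 7 fits).

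In KO at 240 min, Mrpl30, a large subunit protein, had 9.65, 10.08 and 9.93, against 10.28, 10.19, 10.33 and 10.28 at 0 min (limma log2 −0.38 ± 0.09, adjusted p = 0.00386). Mrpl14, which in bacteria lies at the interface of the subunits, had 9.88, 10.14 and 9.87 against 10.30, 10.17, 10.16 and 10.32 (−0.28 ± 0.08, limma adjusted p = 0.0136). Mrps18c had 10.70, 10.84 and 10.89 against 11.15, 10.97, 11.04 and 11.02 (−0.24 ± 0.07, 0.0222). In all 3 the 240 min arrays lay below those at 0 min. Mrpl2, with 9.33, 9.41 and 9.22 against 9.70, 9.44, 9.56 and 9.55, and Mrpl10 and Mrps24 (log2 −0.18 and −0.21) completed the falls. The calls of Mrpl30, Mrpl14, Mrps18c and Mrpl2 were lost in 1, 2, 2 and 5 of 7 fits without 1 array (adjusted p up to 0.0595, 0.0948, 0.136 and 0.197), that of Mrpl30 without KO 240 min replicate A.

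In WT at 60 min, the falls beside Mrpl49 were Mrpl18, of the central protuberance, with 7.90, 8.30 and 8.09 against 8.41, 8.48, 8.56 and 8.45 at 0 min (limma log2 −0.38 ± 0.10, adjusted p = 0.0204), and Mrps18c, with 10.79, 10.81 and 10.83 against 10.997, 11.11, 11.17 and 11.09 (−0.28 ± 0.07, 0.0201). Each was lost in 3 of 7 fits without 1 array. In WT at 240 min, Mrps6, a small subunit protein, had the largest rise, described below. Mrpl50, a mitochondria-specific large subunit protein, had 9.65, 10.01 and 10.08 against 9.38, 9.37, 9.54 and 9.39 (limma log2 0.50 ± 0.10, adjusted p = 0.000717). In KO, Mrpl50 had 9.37, 9.78 and 9.42 at 240 min against 9.33, 9.32, 9.17 and 9.37 at 0 min. Mrpl15 had 7.20, 7.16 and 7.13 against 6.74, 6.67, 6.99 and 6.91 in WT (0.34 ± 0.11, limma adjusted p = 0.0421), and Mrpl20 10.68, 10.99 and 10.88 against 10.49, 10.39, 10.61 and 10.62 (0.33 ± 0.11, 0.0465). All 3 of these genes lay wholly above 0 min in WT, but Mrpl15 and Mrpl20 lost their call in 5 and 4 of 7 fits. The others that rose were Mrpl12 (0.30), Mrpl40 (0.31), Mrpl43 (0.25) and Mrps26, with 10.27, 10.25 and 10.21 against 9.99, 9.94, 10.05 and 9.98 (0.25).

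The third comparison tested whether the responses differed between genotypes, as the KO response minus the WT response. No member passed at 15, 60 or 120 min in limma, where 0.055%, 0.706% and 1.86% of all genes did. At an unadjusted limma p under 0.05 there were 0 members at 15 min. At 60 min 1 was higher and 1 lower, and at 120 min 5 were higher and 3 lower. Of 10903 genes, 337 were higher and 421 lower at 15 min, 640 and 675 at 60 min, and 793 and 930 at 120 min. With scaling to the median of all probes, 12 members passed as lower at 120 min, where the all-gene median moved to −0.27. The share of all genes that passed under it is not given. At 240 min, 3 members passed as lower and none as higher, where 3.54% and 4.32% of all genes did. In a fit of all kept probes, the dimmer probe of Mrpl13 also passed as lower (−0.75 ± 0.20, limma adjusted p = 0.0233). Its brightest probe did not pass (−0.29 ± 0.11, limma adjusted p = 0.127). The median difference at 240 min was −0.20, and 68 of 71 members lay below 0, all but Mrpl34 (0.08), Mrps5 (0.13) and Mrps14 (0.23). Over all genes the median was −0.01, and 5586 of 10903 lay below 0. The members share the same arrays and are not independent. With the other 2 scalings the member median was −0.37 and −0.29, and 3 members passed under each. A test over the 4 times together passed 3 members, Mrps6, Mrpl49 and Mrpl14, where 9.22% of all genes passed.

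**Figure D4:**
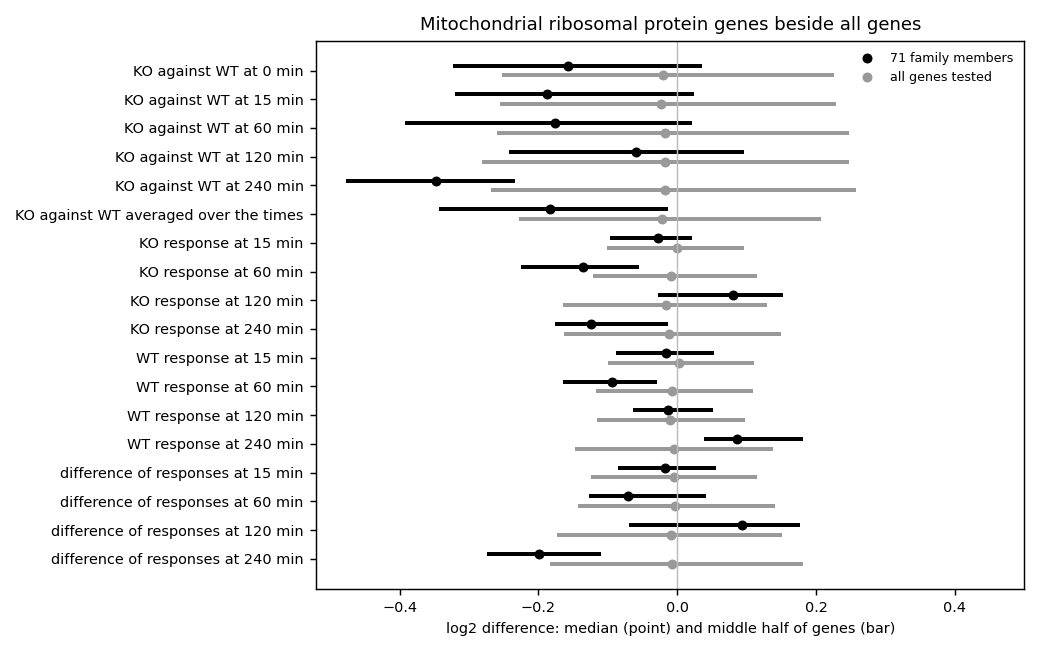
Median (points) and interquartile range (bars) of the log2 difference over the 71 members, in black, and over all 10903 genes tested, in grey, for the 6 genotype comparisons, the 8 responses and the 4 differences of responses. The members' median lies below that of all genes in each genotype comparison, by most at 240 min (−0.35 against −0.02).

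Mrps6 had the largest difference of responses. In KO it had 11.97, 11.52, 11.45 and 11.92 at 0 min, 11.77, 11.65 and 11.62 at 15 min, 11.30, 11.46 and 11.54 at 60 min, 11.71, 11.82 and 11.80 at 120 min, and 11.39, 11.64 and 11.59 at 240 min. In WT it had 11.41, 11.50, 11.51 and 11.37 at 0 min, 11.47, 11.59 and 11.35 at 15 min, 11.34, 11.30 and 11.51 at 60 min, 11.63, 11.58 and 11.57 at 120 min, and 12.03, 12.16 and 12.16 at 240 min. WT at 240 min lay above every other array of either genotype, while KO at 240 min overlapped its own 0 min arrays. The response at 240 min was −0.17 ± 0.10 in KO, which did not pass (limma adjusted p = 0.258), and 0.67 ± 0.10 in WT (2.08e-05). Their difference was −0.84 ± 0.14 (limma adjusted p = 0.000337, and 0.00155 over the 4 times).

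For Mrpl49, whose arrays are given above, the responses differed by −0.01 at 60 min and −0.08 at 120 min, neither of which passed, and by −0.61 ± 0.11 at 240 min (limma adjusted p = 0.00072, and 0.00278 over the 4 times). The other 3 probes of Mrpl49 gave −0.29, −0.49 and −0.64 at 240 min, the same sign, but none passed (limma adjusted p = 0.488, 0.164 and 0.0749). Beside its fall in KO, Mrpl30 in WT had 10.27, 10.40 and 10.25 at 240 min, against 10.06, 10.18, 10.29 and 10.10 at 0 min, and these groups overlapped. Its difference at 240 min was −0.53 ± 0.13 (limma adjusted p = 0.0126, and 0.0535 without KO 240 min replicate A).

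Mrpl14 passed over the 4 times together (limma adjusted p = 0.00677) but at none alone, with differences of 0.22, 0.36 ± 0.11 and −0.24 ± 0.11 at 60, 120 and 240 min. In KO it had 10.31, 10.27 and 10.23 at 60 min, 10.39, 10.56 and 10.34 at 120 min, and 9.88, 10.14 and 9.87 at 240 min. In WT it had 9.87, 9.93 and 9.92 at 60 min, 10.06, 9.90 and 9.83 at 120 min, and 9.94, 10.14 and 10.10 at 240 min. The genotypes were apart at 60 and 120 min and overlapped at 240 min. The 3 members that passed over the 4 times did so in each of the 32 fits without 1 array (adjusted p up to 0.0113 for Mrps6, 0.0205 for Mrpl49 and 0.0201 for Mrpl14). Across members, the KO and WT responses correlated with r of 0.31, 0.14 and 0.18 at 60, 120 and 240 min (n = 71), and over all genes with 0.45, 0.42 and 0.45.

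**Figure D5:**
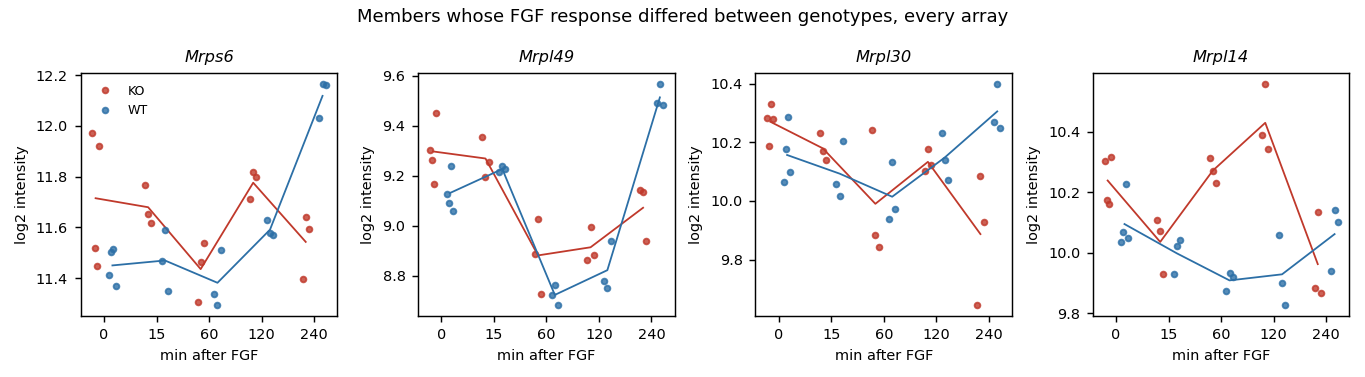
Log2 signal (vertical axis) against time after FGF in minutes (horizontal axis) for Mrps6, Mrpl49, Mrpl30 and Mrpl14, with arrays as points and group means joined by lines, KO in red and WT in blue. Mrps6 on WT arrays at 240 min lies between 12.03 and 12.16, above its KO arrays at 240 min at 11.39 to 11.64.

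Genes near these members were also read, after their values were seen. Slc5a3, the myo-inositol transporter gene, is annotated on the same strand as Mrps6 and overlaps it, with a start 14 bases before that of Mrps6. Its 1 probe was above background on 0 arrays, so it was not tested, and which transcripts the Mrps6 probe reads is not stated in the files used here. None of the 4 tested neighbours of Mrps6 passed for the difference of responses at 240 min, which lay between −0.37 for Cryzl1 and 0.03 for Rcan1. Within genotypes, Rcan1 rose at 240 min in both (log2 0.49 in KO and 0.46 in WT) and Cryzl1 fell in KO (−0.44, limma adjusted p = 0.00219). Fau, which encodes the cytosolic ribosomal protein S30 and starts 191 bases from Mrpl49 on the opposite strand, had a difference of −0.07 (limma adjusted p = 0.701). Znhit2, also near Mrpl49, had −0.39 ± 0.10 (0.0188), and Syvn1, a ubiquitin ligase gene, moved the other way, with 0.65 ± 0.16 (limma adjusted p = 0.0106). None of the 4 tested neighbours of Mrpl30 passed for this difference. Of the 4 of Mrpl14, Vegfa, an angiogenic growth factor gene, had 0.72 ± 0.13 (limma adjusted p = 0.000467) and Tmem63b 0.59 ± 0.18 (0.0429), both opposite in sign to Mrpl14, and Slc29a1 and Mrps18a did not pass.

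Other genes of mitochondrial translation were set beside the family, from lists of known roles that were also written with earlier results known. Beside the counts that follow, 35.6% of all genes passed as lower in KO averaged over the times and 31.8% as higher. Of 11 translation factors, 7 were lower in KO averaged over the times and none higher (median log2 −0.23), among them Mtrf1l, a release factor (limma log2 −0.93 ± 0.051, adjusted p = 1.32e-15), and the elongation factors Tsfm (−0.74 ± 0.042) and Tufm (−0.64 ± 0.037). Of 15 mitochondrial tRNA synthetases and related enzymes, 10 were lower and 3 higher (median −0.44), with Qrsl1 at −0.79 ± 0.038 and Ears2 at −0.68 ± 0.050 among those lower and Iars2 at 0.57 ± 0.059 among those higher. Of 21 genes of mitoribosome assembly and rRNA modification, 14 were lower and 3 higher (median −0.24), including Nsun4, an rRNA methyltransferase (−0.63 ± 0.039), and Mtg1, an assembly GTPase above background on 13 of 16 KO arrays (−0.57 ± 0.067). Of 17 genes of mitochondrial transcription and its regulators, 10 were lower and 4 higher (median −0.24), including Tfam, which packages mitochondrial DNA (−0.57 ± 0.045), and Polrmt, the mitochondrial RNA polymerase (−0.55 ± 0.039). Each of these named genes passed in limma.

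Of 3 mitoribosomal proteins that carry other symbols, Ptcd3 (limma log2 −0.89 ± 0.049, adjusted p = 1.5e-15) and Chchd1 (−0.33 ± 0.047) were lower, and Dap3 was higher (0.29 ± 0.033). Cytosolic ribosomal proteins divided otherwise, with 18 of 60 lower and 23 higher in KO and a median of 0.00, and with 19 lower and 14 higher or 26 lower and 13 higher under the other 2 scalings. Respiratory chain and ATP synthase subunits had 22 of 72 lower and 32 higher (median 0.05), but 24 lower and 20 higher or 30 lower and 19 higher under the other scalings, so that the direction of both lists changed with the scaling. Of 23 factors of cytosolic ribosome biogenesis, 22 were lower in KO and none higher (median −0.53). The shares over all genes were again 35.6% lower and 31.8% higher. At 240 min 11 of these factors had risen in each genotype and none had fallen. Of all genes, 10.2% had then risen and 11.1% had fallen in KO, and 7.66% and 8.33% in WT. Counts of the other lists under the other scalings are not given here.

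The windows from 250 bases before to 50 after the start were searched for motifs on both strands. They covered the 63 members with a RefSeq window on GRCm38.p6, and 27025 genes in all, 8151 of them tested here. A gene was counted as holding a motif if any of its windows did. The ETS motif CCGGAAG was in 25 members (39.7%), against 9.93% of all genes with a window and 18.9% of those tested. The YY1 motif AAGATGGC was in 11 members (17.5%, against 3.19% and 5.05%), and the NRF1 motif in 10 (15.9%, against 5.19% and 11.2%). The GC box GGGCGG was in 32 members (50.8%, against 38.2% and 66.2%), the CCAAT box in 24 (38.1%, against 41.1% and 43.7%), and the E-box CACGTG in 5 (7.94%, against 8.09% and 11.5%). The AP-1 motif TGANTCA was in 3 members (4.76%, against 8.97% and 7.16%), and the response element TGACGTCA in 2 (3.17%, against 2.03% and 3.44%). The EGR motif GCGTGGGCG was in 0 members (0.707% of all genes with a window and 1.41% of those tested). Of the 40 members with a window that were lower in KO, 16 held the ETS motif, 8 the YY1, 4 the NRF1 and 23 the GC box. Among the other 23 members, 9 held the ETS motif, 3 the YY1, 6 the NRF1 and 9 the GC box. These counts describe letters in these windows and were not tested.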

How the data were processed

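RNA of 32 samples was read on Illumina mouse bead arrays. The deposited intensity per probe is not normalized, and the detection value beside it is, by the values, a fraction equal to 1 minus a detection p; the columns are named in the file headers. The submitters' processing notes name GenomeStudio 1.9.0. The sources used here do not say how beads were summarised or which genome build was used, and the files hold no slide or scan date. Another 192 value columns were not used. The authors' deposited series matrix holds linear intensity with near-equal quantiles in every column (column medians 10.1 to 10.2), whose making is not described; it served as an alternative, with values below 0 set to 0 and an offset of 16 before log2.

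Intensities were background-corrected with normexp, quantile-normalized and put on the log2 scale with neqc (offset 16; R 4.3.3, limma 3.58.1). Of 25697 probes, the 14716 with a detection p under 0.05 on at least 3 arrays were kept, and each gene was read from its brightest probe. Of all probes, 23978 had 1 gene symbol, 0 several and 1719 none; the 10903 genes tested comprise 10041 named genes and 862 unnamed probes. One limma model of 10 group means (22 residual and 5.27 prior degrees of freedom) gave all contrasts, with Benjamini-Hochberg adjustment over all genes and a threshold of 0.05. It was also run on simulated data, whose means and spreads were taken from these arrays.

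Array values were given for the 8 largest called rises and falls of the averaged genotype difference, the 5 largest called at 0 min and per response and difference of responses at 60, 120 or 240 min, members passing the test over times, and the 5 brightest and dimmest. The family was picked for description, and its roles and the other lists written, with earlier results of these data known. Replicate letters did not pair KO with WT samples of the same time. Of 16 such pairs with the same letter, 1 had deviations correlated over 0.1 (−0.19 to 0.16). Whether a letter paired samples across times within a genotype was not tested. Alternatives were the authors' table, the scaling, the offset, the filter, the probe rule, the groups fitted, the letter as a block and leaving out each array. Promoter sequences are from RefSeq, GRCm38.p6.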

Additional observations from a re-analysis of the deposited data

Results flagged for a closer look

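For 3 members, 1 array lay far from the other 3 of its group at 0 min. Mrps21 was at 9.84 on KO replicate D, where the other KO arrays lay between 9.50 and 9.53. Mrpl20 was at 10.15 on KO replicate C, with the others between 10.42 and 10.44, and Mrpl50 at 9.54 on WT replicate C, with the others between 9.37 and 9.39. For independent, normally distributed values such a gap arises in about 1 of 20 groups. The 60 groups examined share the same 0 min arrays and are not independent. How many such gaps chance would give here was not tested.

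The response to FGF differed between genotypes for 4 members by a test of the difference itself. At 240 min the KO response minus the WT response was −0.84 for Mrps6, −0.61 for Mrpl49 and −0.53 for Mrpl30 on the log2 scale. Over the 4 times together, the limma adjusted p was 0.00155 for Mrps6, 0.00278 for Mrpl49 and 0.00677 for Mrpl14. Of all genes, 3.54% passed as lower and 4.32% as higher at 240 min, and 9.22% passed over the 4 times.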

How the results depend on the processing

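The number of members passing for the averaged genotype difference (56) lay between 52 and 58 under every alternative run, including leaving out each time, which was chosen after seeing the data, and its direction toward lower in KO held in each. Of 39 named single calls at 0 min, in responses or in differences of responses, 3 changed sign with scaling to the median of all probes, the KO responses at 120 min of Mrpl23 (−0.0099), Mrpl11 (−0.014) and Mrps16 (−0.0013), and 7 others no longer passed. With scaling to the kept probes 7 of the 39 no longer passed, without a filter 6, with the mean of a gene's probes 7, and with an offset of 50 or genes detected on all 32 arrays 0. With the authors' deposited series matrix all counts stayed within 1.5 times, but Mrps11 in KO at 60 min, Mrpl11 in KO at 120 min and Mrpl20 in WT at 240 min no longer passed (limma adjusted p = 0.0519, 0.0518 and 0.0506). With arrays scaled to the median of all probes, 10 members passed in the KO response at 60 min, 20 at 120 min, 0 in the WT response at 60 min, 0 at 120 min and 4 at 240 min, and 12 in the difference at 120 min; the member median became −0.045 for KO against WT at 0 min and −0.24 in the KO response 240 min after FGF. With scaling to the median of the kept probes, 4 passed in the KO response at 240 min, 1 in the WT response at 60 min and 0 at 120 min, and the averaged median was −0.29. All-gene medians moved under the first scaling by −0.12, −0.17 and −0.27 in the differences at 15, 60 and 120 min, and were −0.11 and −0.10 at 0 and 240 min for KO against WT under the second. An offset of 50 gave 12 for the KO response at 120 min, 5 for the difference at 240 min and 7 over the 4 times. No filter gave 3 for the KO response at 60 min. Genes detected on all 32 arrays gave 14 for the KO response at 120 min, 5 for the difference at 240 min and 5 over the 4 times, and the mean of a gene's probes left 0 in the WT response at 120 min and 5 in the difference at 240 min. A fit of only the groups compared gave 0, 4 and 1 for the KO responses at 60, 120 and 240 min and 1, 0 and 3 for those of WT. Apart from fewer arrays in that fit, the cause of these moves was not tested.

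With the replicate letter as a block (replicate block), 2 members passed in the KO response at 60 min and 0 in the WT response at 120 min, no other count moved by more than 1.5 times, and 8 of the 39 single calls no longer passed. Letters did not pair KO with WT samples of the same time. Pairing across times within a genotype was not tested, so a call lost under the block is not read either way.

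Leaving out each array gave 34 to 39 for KO against WT at 0 min, 26 to 36 at 15 min, 30 to 35 at 60 min, 24 to 26 at 120 min, 49 to 56 at 240 min and 53 to 57 averaged. It gave 1 to 6, 5 to 8 and 1 to 11 for the KO responses at 60, 120 and 240 min, 1 to 3, 0 to 1 and 5 to 14 for those of WT, 0 for the differences at 15, 60 and 120 min, 3 to 8 at 240 min and 3 to 10 over the 4 times. The member medians ranged from −0.18 to −0.11 at 0 min, −0.20 to −0.17 averaged, −0.17 to −0.05 for the KO and 0.07 to 0.15 for the WT response at 240 min. The KO response at 60 min gave 2 without KO 0 min replicate A, 3 without D, 3 without KO 60 min replicate B and 1 without C. That at 240 min gave 2 without KO 0 min replicate A, 4 without D, 1 without KO 240 min replicate A, 11 without B and 2 without C. The WT response at 60 min gave 1 without WT 0 min replicate C or WT 60 min replicate A, that at 120 min 0 without WT 0 min replicate C or WT 120 min replicates A or B, and that at 240 min 14 without WT 0 min replicate C and 5 without WT 240 min replicate B. The difference at 240 min gave 5 without KO 0 min replicate C, 8 without KO 240 min replicate B, 7 without WT 0 min replicate C and 6 without WT 240 min replicate A; over the 4 times the same last 3 gave 10, 5 and 8. Mrps14, above background on 4 arrays, and the 5 members that did not pass the filter are limited by signal over background, and 3 or 4 arrays a group limit the precision of every response.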
